A study of Danio rerio with 4 samples.

Results

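The H3K27ac landscape around *aldh1a2* and *wt1b* was examined in noncardiomyocytes (nonCMs) of the injured zebrafish heart. H3K27ac is the acetylation of lysine 27 on histone H3, a mark found on active promoters and enhancers. Each locus was taken as the open chromatin regions that the study assigned to the gene, together with 100 kb on either side, and its members were the peaks overlapping that window by at least 1 bp. The study lists these open regions as active in epicardial cells and fibroblasts and as overlapping known candidate regeneration enhancers. Of 137121 peaks in the 4 lists, 47 lay in the *aldh1a2* window and 21 in the *wt1b* window. The *aldh1a2* window was chr7:30226728-30443653, 216926 bp long, around a pair of open regions at chr7:30326728-30326943 and chr7:30343312-30343653. The *wt1b* window was chr18:45435678-45635907, 200230 bp long, around 1 open region at chr18:45535678-45535907. Positions are read as GRCz11, the build of the peak lists. The table that gives the open regions names no build, so which gene a window holds rests on that reading.

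The libraries came from nonCMs of the injury area at 7 days after apex resection (dpa), with 2 libraries of *Epi/FB:dnAP-1* and 2 of control fish. *Epi/FB:dnAP-1* fish carried *TgBAC*(*tcf21:Cre-ERT2*) together with a *ubb:loxp-dsRed-loxp-Flag-dnAP-1* transgene, and 4-hydroxytamoxifen was used to switch on a dominant-negative form of the transcription factor AP-1. Cre is driven by *tcf21*, so the transgene is switched on in epicardial cells and fibroblasts (Epi/FBs), whereas the libraries hold all nonCMs of the injury area, endothelial cells and macrophages included. For the inducible lines the methods describe controls as fish with both transgenes given ethanol. The labels name the control libraries only as control or wild type, so whether their cells carried the transgenes is not settled here. The number of hearts in a library is not given in the sources used here. A change in the share of a cell type and a change in signal per cell cannot be told apart in such bulk libraries.

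*aldh1a2* encodes a retinaldehyde dehydrogenase, the enzyme that makes retinoic acid, a signal that diffuses to neighbouring cells. In the zebrafish heart its expression comes on in epicardium and endocardium after injury, where it serves as a marker of activation. *wt1b* encodes a Wilms tumour zinc finger transcription factor and is a marker of the developing and the regenerating epicardium. In the gene table of a later zebrafish assembly, GRCz12tu, the neighbours of *aldh1a2* are *polr2m*, a subunit associated with RNA polymerase II, and *aqp9b*, an aquaporin. In the same table *wt1b* shares its span with *eif3m* and *prrg4* and overlaps *kifc3*, a kinesin. A peak in these windows may therefore belong to another gene, and no peak was assigned to a promoter. No DNA sequence is shown because no genome of the files' build was used here.

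Each list gives a total signal, the sum of the coverage at all bases of the peak, and a maximum, which is its highest coverage. Both were scaled by the authors with a factor of each library. All maxima of a list are whole multiples of one value, called a step here, which was 1.26 and 1.38 in control replicates 1 and 2 and 0.68 in both *Epi/FB:dnAP-1* libraries. A maximum counted in steps is free of the scaling, but rises with the number of reads, which the lists do not give. The lists held 32638 to 38429 peaks and covered 6.85% to 8.14% of chromosomes 1 to 25. Their weakest total signals differed, at 12993 and 10480 in the controls and 7490 and 9203 in *Epi/FB:dnAP-1*. The lists therefore reached down to lower signal in *Epi/FB:dnAP-1* on the deposited scale. Counted in steps the order is different, with 10312 and 7594 in the controls and 11015 and 13534 in *Epi/FB:dnAP-1*.

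More H3K27ac peaks, covering more bases in all, lay around *aldh1a2* in *Epi/FB:dnAP-1* than in control libraries. The window held 7 and 8 peaks in the first and second control list, against 15 and 17 in those of *Epi/FB:dnAP-1*. Paired values follow this order of replicates throughout. Covered length was 15.4 and 15.3 kb in the controls and 34.0 and 40.9 kb in *Epi/FB:dnAP-1*. The groups did not overlap in either measure. In median peak width they did overlap, at 2298 and 1751 bp in the controls and 2050 and 2260 bp in *Epi/FB:dnAP-1*. Mean covered length was 15.3 ± 0.108 kb in control and 37.4 ± 4.82 kb in *Epi/FB:dnAP-1* libraries (SD, n = 2 each), a ratio of 2.44. Summed total signal was 123712 and 126596 in the controls and 211989 and 278115 in *Epi/FB:dnAP-1*, a ratio of 1.96 between the means. Signal per covered base ran the other way on the deposited scale, at 8.03 and 8.30 in the controls and 6.23 and 6.81 in *Epi/FB:dnAP-1*. Over whole lists it had the same order, at 8.66 and 8.43 in the controls and 7.65 and 7.64 in *Epi/FB:dnAP-1*. In steps the value of the window was 6.37 and 6.01 in the controls and 9.16 and 10.0 in *Epi/FB:dnAP-1*. Maxima in steps were also higher over whole lists, with medians of 16 and 14 in the controls and 34 and 37 in *Epi/FB:dnAP-1*. Neither order was thus particular to the locus.

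The *wt1b* window showed a smaller difference in the same direction. It held 5 and 3 peaks in the controls against 8 and 5 in *Epi/FB:dnAP-1*, so that the groups met at 5. Covered length was 13.8 and 8.28 kb in the controls against 17.0 kb in both *Epi/FB:dnAP-1* libraries. Here the control libraries differed from each other by more than control replicate 1 differed from *Epi/FB:dnAP-1*. Mean covered length was 11.05 ± 3.91 kb in control and 17.0 ± 0.00848 kb in *Epi/FB:dnAP-1* libraries (SD, n = 2 each), a ratio of 1.54. Summed signal was 89965 and 44800 in the controls and 94682 and 93267 in *Epi/FB:dnAP-1*.

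A two-sided exact permutation test with 2 libraries against 2 allows no p below 0.333, so neither locus could pass a threshold of 0.05 by itself. The exact permutation p was 0.333 for covered length and summed signal at both loci and for the number of *aldh1a2* peaks, and 0.667 for the number of *wt1b* peaks. Adjusted over these 6 tests by the Benjamini-Hochberg method, the exact permutation p was 0.400 for the first 5 and 0.667 for the last. With control replicate 2 left out, the difference at *wt1b* was 3179 bp in place of 5944 bp of covered length, and 4009 in place of 26592 of summed signal. With control replicate 1 left out these became 8710 bp and 49174 of summed signal.

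**Figure D1:**
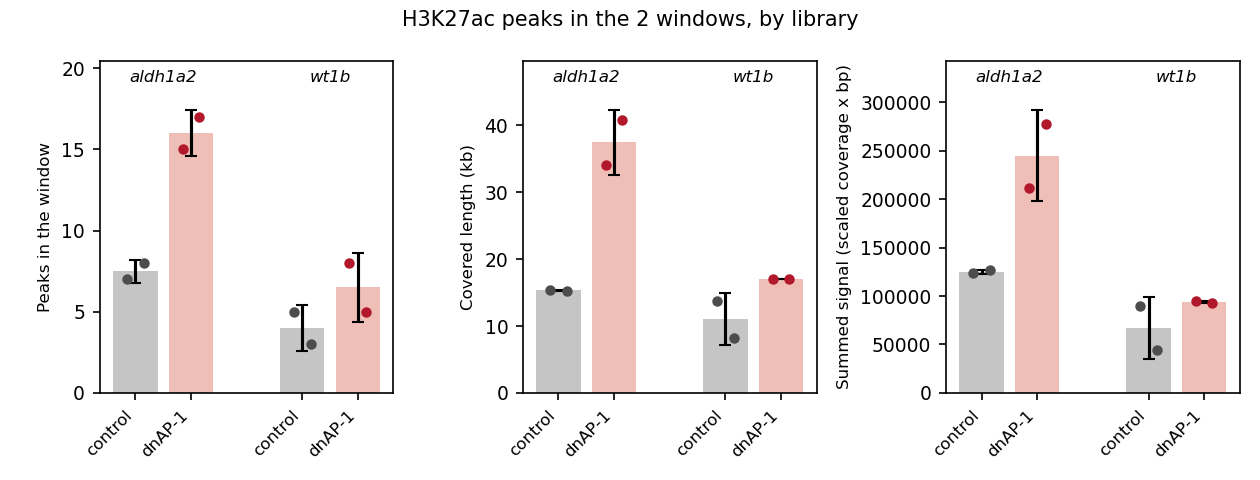
Peaks in the window (left), covered length in kb (middle) and summed signal in scaled coverage times bp (right) at *aldh1a2* and *wt1b*. Points are the 2 libraries of each group, bars the mean and whiskers the SD. At *aldh1a2* the points of the groups are far apart in all panels, and at *wt1b* control replicate 1, at 13.8 kb, lies nearer to the *Epi/FB:dnAP-1* libraries than to control replicate 2.

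The windows were then set beside windows of the same length tiled end to end over chromosomes 1 to 25, which describe the series and give no p-value. Among 6187 windows as long as that of *aldh1a2*, both *Epi/FB:dnAP-1* libraries were above both controls in covered length in 18.1% and below both in 18.9%. The order seen at *aldh1a2* was thus common, and its size was not. Its difference of 22106 bp exceeded that of 99.6% of windows, of which the 95th percentile was 9716 bp and the median 0. The number of peaks gave 99.9% and the summed signal 99.7%. In the controls the locus was ordinary, with a covered length above that of 55.7% and 62.2% of windows. In *Epi/FB:dnAP-1* replicates 1 and 2 it lay above 89.3% and 90.8%. Both loci were chosen with earlier results of these data known, so such ranks only describe them.

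Among 6701 windows as long as that of *wt1b*, 18.3% had both *Epi/FB:dnAP-1* libraries above both controls. The difference at *wt1b* exceeded that of 89.1% of windows, and stayed within their 95th percentile of 9227 bp. Its covered length was above that of 55.6% and 44.6% of windows in control replicates 1 and 2, and of 69.2% and 65.9% in *Epi/FB:dnAP-1*. Without control replicate 2 the difference at *wt1b* exceeded that of 80.5% of windows.

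**Figure D2:**
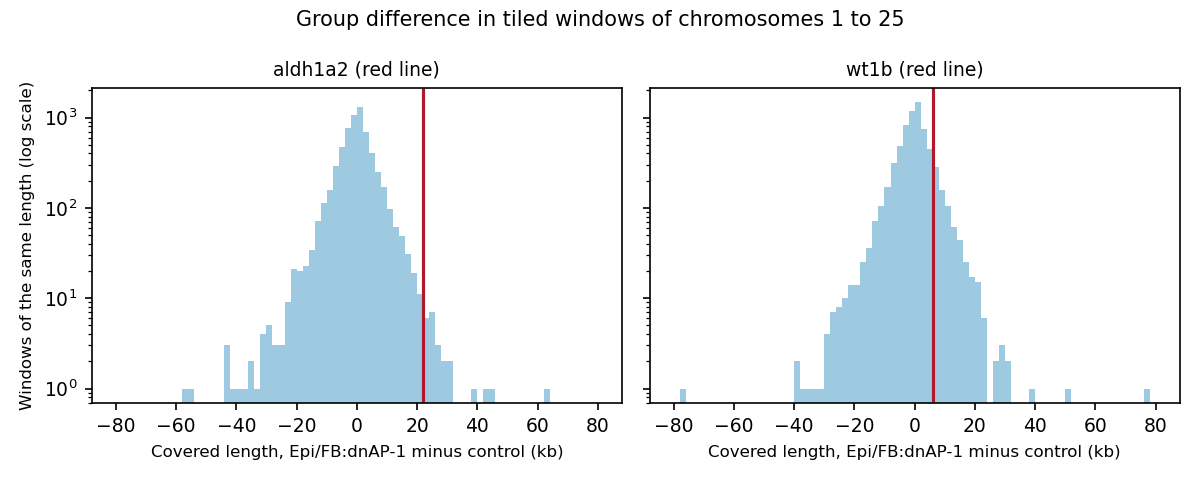
Number of tiled windows (log scale) by the difference in covered length between groups, *Epi/FB:dnAP-1* minus control, in kb. The red line is the locus. It stands at 22.1 kb for *aldh1a2*, in the thin right tail with 99.6% of windows below it, and at 5.944 kb for *wt1b*, on the shoulder of the distribution with 89.1% below it.

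Peaks of the 4 lists that overlapped were merged into sites. Across the genome 33.9% of 51678 sites were called in all 4 lists, 7.64% in both *Epi/FB:dnAP-1* lists and no control list, and 3.04% in both control lists and no *Epi/FB:dnAP-1* list. The *aldh1a2* window held 19 sites, of which 5 were called in all 4 lists, 7 in both *Epi/FB:dnAP-1* lists only and 0 in both control lists only. Another 4 were called in 2 or 3 lists across the groups, and 3 in a single list. As many as 7 sites of the *Epi/FB:dnAP-1* lists only were found in 5 of 6187 tiled windows (0.0808%), where the median window held 0. The *wt1b* window held 8 sites, with 3 in all 4 lists, 1 in both *Epi/FB:dnAP-1* lists only and 0 in both control lists only. At least 1 such site was present in 33.9% of the windows of that length.

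The thresholds of the lists bear on these counts. At the 7 *aldh1a2* sites called in *Epi/FB:dnAP-1* only, 5 of the 7 peaks of replicate 1 and 2 of the 7 peaks of replicate 2 had a total signal below the weakest peak of control replicate 1. Peaks of that strength would have been absent from the list of control replicate 1. In steps, 0 of these 14 peaks were below the weakest of either control list. With 1 threshold for all lists on the deposited scale, an alternative chosen after seeing the data, *aldh1a2* kept 7 and 7 peaks in the controls and 7 and 11 in *Epi/FB:dnAP-1*, with 2 sites in *Epi/FB:dnAP-1* only. Covered length was then 15412 and 13942 bp against 18761 and 26799 bp, and the difference still exceeded that of 98.7% of windows. At *wt1b* that threshold left 5 and 1 peaks in the controls and 3 and 4 in *Epi/FB:dnAP-1*, and no site in *Epi/FB:dnAP-1* only. Under that threshold the share of *Epi/FB:dnAP-1*-only sites over the genome was not counted. Nor was the share of tiled windows with as many of them as a locus. With 1 threshold in steps, *aldh1a2* held 4 and 1 peaks in the controls and 11 and 17 in *Epi/FB:dnAP-1*.

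The sites around *aldh1a2* are given in order along chromosome 7, with percentiles that rank the total signal of a peak within its own list. The lists began at different total signals, so percentiles do not compare signal between libraries. On the deposited scale, the median log2 difference of the maxima over all sites in 4 lists was 0.34, higher in *Epi/FB:dnAP-1*. The share of those sites at which the groups did not overlap was not counted. Site 1 (chr7:30226953-30229470) was called in all 4 lists. Its maximum was 35.3 and 30.4 in the controls and 38.8 and 41.5 in *Epi/FB:dnAP-1*. The peaks were 2506, 1579, 1715 and 2361 bp wide, in the same order of libraries, at percentiles 70.9, 56.8, 76.4 and 81.6. This was the strongest peak of the window by total signal in control replicate 1 and in *Epi/FB:dnAP-1* replicate 2. Site 2 (chr7:30231394-30233282) was called in *Epi/FB:dnAP-1* only, with maxima of 21.8 and 24.5, widths of 1592 and 1572 bp and percentiles of 18.4 and 12.5. Site 3 (chr7:30233810-30235620) was called in *Epi/FB:dnAP-1* replicate 1 alone, with a maximum of 19.0, a width of 1811 bp and a percentile of 24.9.

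Site 4 (chr7:30240762-30243021) was in all 4 lists. Its maximum was 27.7 and 27.6 in the controls and 40.1 and 40.8 in *Epi/FB:dnAP-1*, where the groups stood well apart and each pair of replicates lay close together. The peaks were wider in *Epi/FB:dnAP-1*, at 2154 and 2260 bp against 973 and 1300 bp in the controls. Their percentiles were 8.93 and 52.1 in the controls and 69.6 and 65.4 in *Epi/FB:dnAP-1*. After a stretch of 28.7 kb without a peak in any list came site 5 (chr7:30271678-30273379), called in *Epi/FB:dnAP-1* only. It had maxima of 27.2 and 34.7, widths of 1564 and 1702 bp and percentiles of 28.1 and 45.6.

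Sites 6 and 7 had peaks in control lists with higher maxima than those of *Epi/FB:dnAP-1* on the deposited scale. In steps the order was reversed, at 15 in control against 29 in *Epi/FB:dnAP-1* at site 6, and 23 and 20 against 34 at site 7. Over whole lists the median maximum in steps was 16 and 14 in the controls and 34 and 37 in *Epi/FB:dnAP-1*. The order in steps was thus not particular to these sites. Site 6 (chr7:30279718-30281166) was called in control replicate 2 and *Epi/FB:dnAP-1* replicate 2, with maxima of 20.7 and 19.7, widths of 1317 and 1415 bp and percentiles of 0.248 and 5.46. Both peaks were among the weakest of their lists. Site 7 (chr7:30281686-30284008) was called in both controls and in *Epi/FB:dnAP-1* replicate 2, with maxima of 29.0, 27.6 and 23.1, widths of 2298, 2014 and 2255 bp and percentiles of 41.8, 63.3 and 41.3. Site 7 was the only site of the window at which both controls had the higher maximum on the deposited scale. *Epi/FB:dnAP-1* replicate 1 had no peak there at all.

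Sites 8 to 11 followed, nearer to the open regions. Site 8 (chr7:30293481-30297151) was called in *Epi/FB:dnAP-1* only and was low and broad, with maxima of 11.6 and 10.9, widths of 2220 and 3367 bp and percentiles of 19.6 and 40.6. Site 9 (chr7:30303979-30305464) was in *Epi/FB:dnAP-1* replicate 1 alone, with a maximum of 13.6, a width of 1486 bp and a percentile of 4.76. Site 10 (chr7:30309636-30312734) was in all 4 lists, with maxima of 22.7 and 27.6 in the controls and 39.4 and 37.4 in *Epi/FB:dnAP-1*. Here too the groups did not overlap. The peaks of site 10 were 2481, 1923, 2596 and 2938 bp wide, at percentiles 41.6, 58.0, 77.2 and 65.8 from control replicate 1 to *Epi/FB:dnAP-1* replicate 2. Next to it, site 11 (chr7:30313314-30318380) was called in *Epi/FB:dnAP-1* only. Its maxima were 24.5 and 30.6, its widths 3156 and 3564 bp and its percentiles 58.7 and 60.9, so that it ranked above the middle of both lists.

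Site 12 (chr7:30322705-30327907) held the first open region and was called in *Epi/FB:dnAP-1* only. In replicate 1 the peak was 5203 bp wide, the widest of the window, with a maximum of 27.9 and a percentile of 79.8, the highest of that list in the window. In replicate 2 it was 2924 bp wide, with a maximum of 17.7 and a percentile of 45.3, and it ended just beyond the open region, at position 30326959. The positions of the maxima were 2516 bp apart, farther than at any other site of the window, so the replicates shared the site and not its summit. The maxima lay 3742 and 1226 bp from the middle of the open region. The nearest control peaks were 7067 bp away in replicate 1 and 9762 bp away in replicate 2.

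Site 13 (chr7:30333098-30335893) lay between the open regions and was called in control replicate 1 and *Epi/FB:dnAP-1* replicate 2, with maxima of 16.4 and 13.6, widths of 1854 and 2796 bp and percentiles of 0.322 and 22.7. Site 14 (chr7:30336167-30338273), also between them, was in all 4 lists and had the highest maxima of the window in both *Epi/FB:dnAP-1* libraries. The maximum was 32.8 and 26.2 in the controls and 50.3 and 44.9 in *Epi/FB:dnAP-1*. In steps this was 26 and 19 against 74 and 66. The groups were separate, and the positions of the maxima fell within 116 bp in the 4 lists. Widths were 1464, 1569, 2050 and 1375 bp and percentiles 20.8, 36.0, 72.4 and 62.7 from control replicate 1 to *Epi/FB:dnAP-1* replicate 2.

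Site 15 (chr7:30339884-30344211) held the second open region and was in all 4 lists, with maxima of 15.1 and 16.6 in the controls and 18.4 and 15.6 in *Epi/FB:dnAP-1*, where the groups overlapped. The open region itself lay only within the peak of control replicate 1, which was 3836 bp wide. The other peaks, 2363 bp wide in control replicate 2 and 1887 and 2227 bp wide in *Epi/FB:dnAP-1*, ended 1066, 1000 and 1106 bp short of it. Percentiles were 52.5, 56.3, 54.2 and 35.3.

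Beyond the open regions, site 16 (chr7:30353616-30355441) was called in *Epi/FB:dnAP-1* only, with maxima of 15.6 and 21.8, widths of 1802 and 1826 bp and percentiles of 23.8 and 45.4. Site 17 (chr7:30365724-30369531) was called in control replicate 2 as well as in both *Epi/FB:dnAP-1* lists, with maxima of 15.2, 19.0 and 23.1, widths of 3194, 2173 and 2179 bp and percentiles of 40.2, 32.6 and 30.1. A stretch of 60.6 kb without a peak in any list followed. At its far side, site 18 (chr7:30430178-30433593) was in *Epi/FB:dnAP-1* replicate 2 alone, with a maximum of 8.84, a width of 3416 bp and a percentile of 18.3. Site 19 (chr7:30433923-30436657) was called in *Epi/FB:dnAP-1* only, with maxima of 15.0 and 17.0, widths of 2624 and 2674 bp and percentiles of 28.1 and 32.4.

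The 7 *Epi/FB:dnAP-1*-only sites of *aldh1a2* ranked below the middle of the lists at the median. Their median percentile was 28.1 in replicate 1 and 45.3 in replicate 2, beside 32.8 and 25.4 for all 3948 such sites of the genome. The 5 sites in all lists had medians of 41.6 and 56.3 in the controls and 72.4 and 65.4 in *Epi/FB:dnAP-1*, beside 69.3 to 75.1 for all sites in 4 lists.

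**Figure D3:**
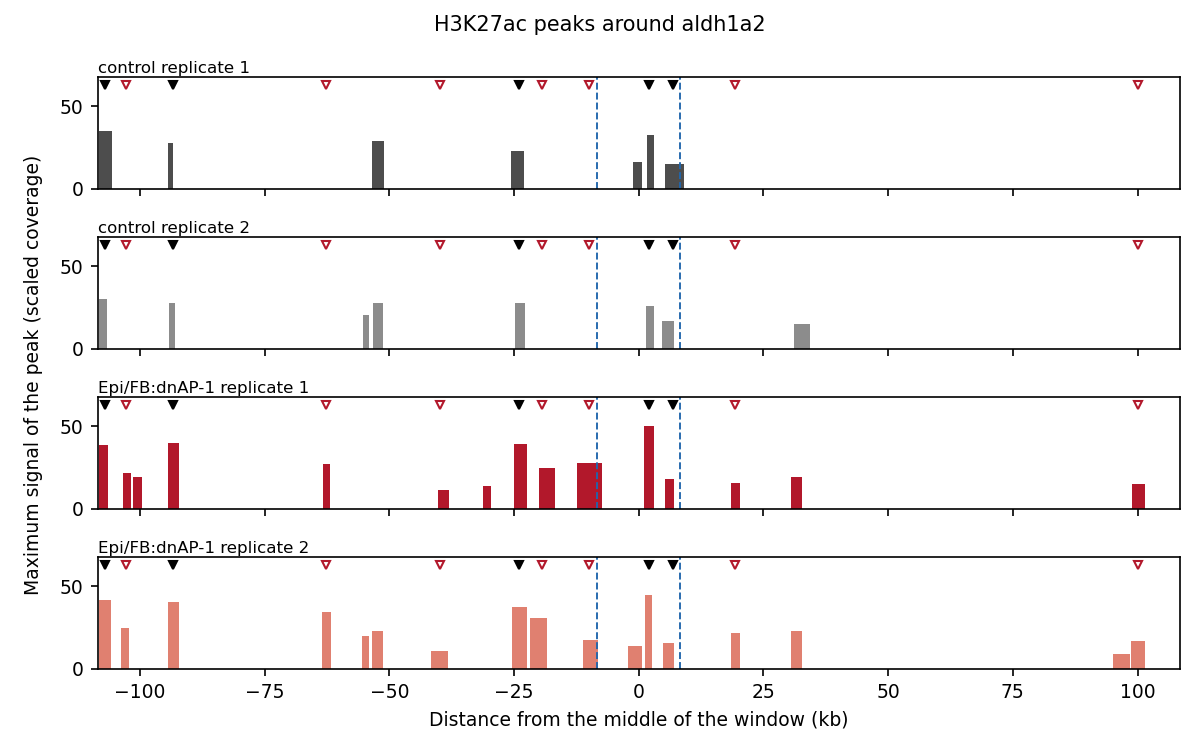
Peaks of each list in the *aldh1a2* window, by distance from the middle of the window (kb). Bar height is the maximum signal of the peak and bar width its length, dashed lines are the open regions, black triangles mark the 5 sites of all 4 lists and open red triangles the 7 sites of both *Epi/FB:dnAP-1* lists only. The red triangles stand over gaps in both control rows, and the first dashed line crosses a peak only in the *Epi/FB:dnAP-1* rows.

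Around *wt1b* the peaks lay in a cluster on one side of the open region and in a second group with mostly lower maxima on the other side, with 1 lone peak between them. The first 85.7 kb of the window held no peak in any list. Site 1 (chr18:45521405-45522798) was called in *Epi/FB:dnAP-1* only, with maxima of 23.1 and 34.0, widths of 1219 and 1378 bp and percentiles of 19.5 and 34.4. The maxima of its 2 peaks were 4 bp apart. Site 2 (chr18:45524982-45527901) was in all 4 lists and was the strongest of the window by maximum in every library. Its maximum was 36.5 and 23.5 in the controls and 43.5 and 55.8 in *Epi/FB:dnAP-1*, with no overlap of the groups. Widths were 2318, 2573, 1634 and 2857 bp and percentiles 59.7, 66.3, 70.0 and 74.9 from control replicate 1 to *Epi/FB:dnAP-1* replicate 2.

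Site 3 (chr18:45528628-45531977) was the site nearest to the open region of *wt1b*, 3701 bp from it. Its maximum was 25.2 and 11.04 in the controls and 38.1 and 37.4 in *Epi/FB:dnAP-1*. In steps this was 20 and 8 against 56 and 55. The controls were spread and the *Epi/FB:dnAP-1* libraries almost equal, and the groups did not overlap. Widths were 1330, 2914, 2588 and 2435 bp, at percentiles 4.42, 30.4, 53.3 and 43.5. The control peaks thus stood low in their lists and the *Epi/FB:dnAP-1* peaks near the middle of theirs. Their total signals were close, at 13311 and 12944 in the controls and 13503 and 14910 in *Epi/FB:dnAP-1*. The weakest peaks of the same lists had 12993, 10480, 7490 and 9203, so these percentiles do not show stronger peaks. The open region itself lay in no peak of any list, and the nearest peaks ended 4737, 3701, 4463 and 4599 bp from it.

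Site 4 (chr18:45550069-45551706), on the far side of the open region, was called in *Epi/FB:dnAP-1* replicate 1 alone, with a maximum of 21.8, a width of 1638 bp and a percentile of 8.94. A stretch of 39.7 kb without a peak separated it from site 5 (chr18:45591409-45598621), which was in all 4 lists. In site 5 the maximum was 15.1 and 11.04 in the controls and 19.0 and 12.9 in *Epi/FB:dnAP-1*, and the groups overlapped. The control peaks were 1803 and 2794 bp wide, at percentiles 4.86 and 13.8. *Epi/FB:dnAP-1* replicate 2 had a single peak of 7213 bp at percentile 72.9 there. *Epi/FB:dnAP-1* replicate 1 had a pair of peaks, 2229 and 3385 bp wide, at percentiles 50.3 and 58.7, the second with a maximum of 13.6.

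Site 6 (chr18:45599220-45600119) was in *Epi/FB:dnAP-1* replicate 1 alone, with a maximum of 21.1, a width of 900 bp and a percentile of 3.51. Site 7 (chr18:45609803-45613401) was called in control replicate 1 as well as in both *Epi/FB:dnAP-1* lists. Its maxima were 12.6, 6.80 and 6.80, or 10 steps in each of these libraries, with widths of 1934, 3392 and 3114 bp and percentiles of 11.1, 28.6 and 0.279. The control peak was higher on the deposited scale and equal in steps. Site 8 (chr18:45616463-45622889) was in control replicate 1 alone, with a maximum of 11.3, a width of 6427 bp and a percentile of 71.6. It was longer than the whole difference in covered length between the controls.

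**Figure D4:**
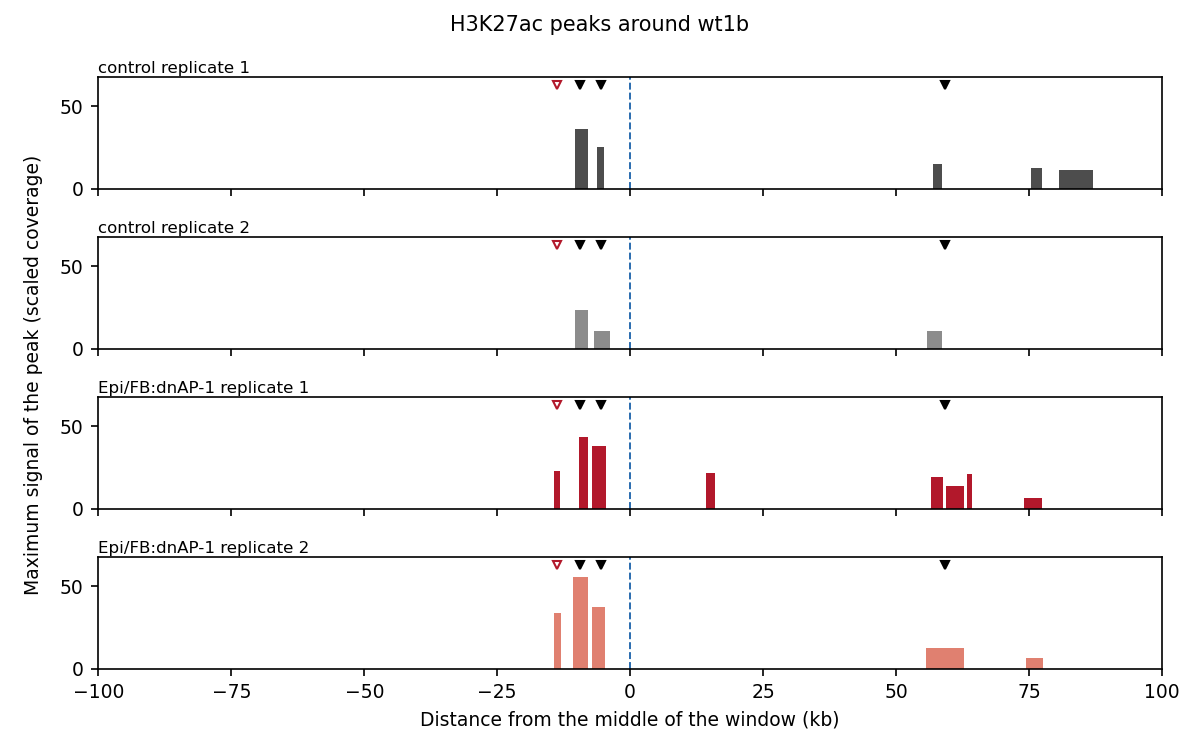
Peaks of each list in the *wt1b* window, drawn as distance from the middle of the window (kb) against maximum signal. The dashed line is the open region, black triangles mark the 3 sites of all 4 lists and the open red triangle the site of both *Epi/FB:dnAP-1* lists only. The dashed line crosses no peak, and the tallest bars, up to 55.8, stand just to its left in every row.

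Bases rather than sites gave the same picture of overlap. At *aldh1a2*, 9478 bp were covered in both control lists and 25457 bp in both *Epi/FB:dnAP-1* lists. The 6918 bp covered in all 4 lists were 73.0% of the first and 27.2% of the second. A further 15720 bp were covered in both *Epi/FB:dnAP-1* lists and no control list, and 0 bp in both control lists and no *Epi/FB:dnAP-1* list. The Jaccard index, shared over combined length, was 0.447 between the controls and 0.515 between the *Epi/FB:dnAP-1* lists, and 0.194 to 0.301 between lists of different groups. At *wt1b*, 5357 bp were covered in both control lists and 13737 bp in both *Epi/FB:dnAP-1* lists, and the 4606 bp in all 4 were 86.0% and 33.5% of these. Both *Epi/FB:dnAP-1* lists and no control list covered 6128 bp, against 0 bp in reverse. There the Jaccard index was 0.320 between the controls and 0.679 between the *Epi/FB:dnAP-1* lists. Between groups it was 0.275 to 0.408, a range that takes in the value between the controls. Overlap in bases and Jaccard indices were not computed for the tiled windows, so whether these values are particular to the loci was not tested. Over the genome, 7.64% of sites were in both *Epi/FB:dnAP-1* lists only and 3.04% in both control lists only.

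Signal was compared at sites where each of the 4 lists had a peak. limma was fitted to the log2 maximum at 17511 such sites, with Benjamini-Hochberg adjustment over all of them. By this test 10.2% were higher and 3.83% lower in *Epi/FB:dnAP-1* at an adjusted p under 0.05, and the median log2 difference over all sites was 0.34 on the deposited scale. The direction depended on the scaling. With each list centred on its median 303 sites were higher and 1709 lower, and on total signal 47 and 389. On the deposited maximum 1 of the 8 sites of the loci passed, *wt1b* site 3. Its log2 difference was 1.18 ± 0.32 (SE), a 2.26-fold higher maximum (limma, adjusted p = 0.029). Its difference exceeded that of 98.9% of all sites in 4 lists. Both *Epi/FB:dnAP-1* libraries were above both controls there. The call depended on the measure of signal. It was lost when each list was centred on its median, with a log2 difference of 0.82 (limma, adjusted p = 0.0757). It was also lost on total signal in place of the maximum, with a log2 difference of 0.11 (limma, adjusted p = 0.899). With maxima in steps the site passed, as most sites in 4 lists did, with a log2 difference of 2.13 (limma, adjusted p = 3.9e-04). With 1 library left out the log2 difference was 0.58 to 1.77, lowest without control replicate 2 and highest without control replicate 1. Its size thus depended on the control library kept. Such fits hold 1 library in a group, so whether the site passed in them was not read.

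The other 7 sites did not pass on the maximum. At *wt1b*, site 2 had a log2 difference of 0.75 ± 0.27 (SE; limma, adjusted p = 0.0674) and site 5 one of 0.28 ± 0.27 (SE; limma, adjusted p = 0.444). On total signal site 5 did pass, with a log2 difference of 1.16 (limma, adjusted p = 0.0439), so which *wt1b* site passed depended on the measure. By total signal 47 of all 17511 sites were called higher and 389 lower. The peaks of site 5 covered 1803 and 2794 bp in the controls and 5614 and 7213 bp in *Epi/FB:dnAP-1*, and total signal sums over these bases. At *aldh1a2* the largest was 0.70 ± 0.24 at site 14 (SE; limma, adjusted p = 0.0631), larger than at 84.6% of all sites in 4 lists. Site 10 followed with 0.62 ± 0.24 and site 4 with 0.55 ± 0.24 (SE; limma, adjusted p = 0.0844 and 0.109). Sites 1 and 15 had 0.29 and 0.099, below the median of all sites (limma, adjusted p = 0.368 and 0.775). All 8 values were above 0 on the deposited scale, as was the median of all sites in 4 lists, 0.34. After centring each list on its median, *aldh1a2* sites 1 and 15 and *wt1b* site 5 were below 0, at -0.063, -0.26 and -0.076, and the other 5 stayed above. With maxima in steps all 8 passed, as did 15475 of the 17511 sites, around a median of 1.29.

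**Figure D5:**
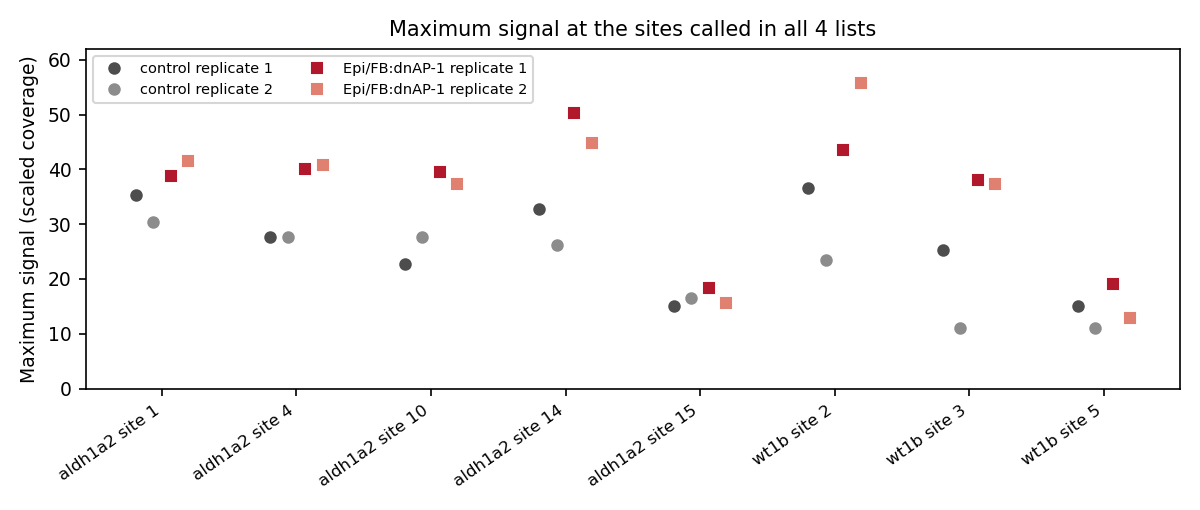
Maximum signal (scaled coverage) of each library at the 5 *aldh1a2* and 3 *wt1b* sites called in all 4 lists. Circles are the control and squares the *Epi/FB:dnAP-1* libraries. The squares lie above the circles at 6 sites and overlap with them at *aldh1a2* site 15 and *wt1b* site 5. How many of all 17511 sites in 4 lists show that order was not counted. Their median log2 difference was 0.34 on this scale. The widest gap relative to the controls is at *wt1b* site 3.

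For context, other genes of retinoid handling and of the epicardium were placed in the same way, by the study's open regions and 100 kb on either side. Of 25 retinoid genes 10 could be placed. Covered length was higher in both *Epi/FB:dnAP-1* libraries than in both controls at 2 of them, *aldh1a2* and *rbp4*, the carrier of retinol in blood. The *rbp4* window had 10335 and 8708 bp in the controls and 14972 and 15074 bp in *Epi/FB:dnAP-1*. The reverse order was found at 4 genes, *stra6*, a receptor for that carrier, *rdh10a* and *dhrs3a*, which interconvert retinol and retinaldehyde, and *rarga*, a retinoic acid receptor. At *rarga* covered length was 35783 and 40529 bp in the controls and 21407 and 21981 bp in *Epi/FB:dnAP-1*. At *stra6* it was 3118 and 1833 bp against 0 bp in both *Epi/FB:dnAP-1* libraries. The groups overlapped at the other 4, or, as at *cyp26b1*, an enzyme that breaks down retinoic acid, no list had a peak. With 18.1% to 18.9% of tiled windows in either order, 2 and 4 of 10 were not read as a result about the list.

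Of 24 epicardial and fibroblast genes 16 could be placed, *aldh1a2* and *wt1b* among them. Both *Epi/FB:dnAP-1* libraries were above both controls at 6, below at 3, and in neither order at 7. Beside the 18.1% to 18.9% of tiled windows in either order, and with both genes of interest among the 6, these counts were not read as a result about the list either. After *aldh1a2*, the largest difference of the 6 was at *snai1b*, a transcription factor of epithelial to mesenchymal transition, with 15193 and 14854 bp in the controls and 27820 and 38507 bp in *Epi/FB:dnAP-1*. The remaining 3 were *nrg1*, which encodes a growth factor for heart muscle, *pdgfra*, a receptor of fibroblasts, and *cxcl12a*, a chemokine. *pdgfra* had no peak in the controls and 2680 and 2932 bp in *Epi/FB:dnAP-1*. Both were below at *dcn*, a matrix proteoglycan, *vegfaa* and *fgf10b*, both growth factors. At *vegfaa* covered length was 13684 and 12443 bp in the controls and 4055 and 3457 bp in *Epi/FB:dnAP-1*. The identity of the cells could not be checked against other lineages, since none of 4 endocardial, 3 macrophage and 3 cardiomyocyte markers could be placed here. The open regions used for placing genes were those listed as active in Epi/FBs and overlapping known candidate regeneration enhancers, so the list was not made to hold such markers. The copy used was cut at 1999 rows. A gene of any list may be unplaced for that reason too.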

How the data were processed

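Each deposited list holds the peaks of 1 H3K27ac CUT&Tag library in the 6 columns that SEACR writes, though the methods name macs2 beside it. Per the labels and the paper, adaptors were cut with cutadapt 2.7, Bowtie2 2.2.5 placed the reads on GRCz11, SAMtools 1.9 and Picard took out unmapped and duplicate reads, and the authors scaled the coverage by a factor from ChIPseqSpikeFree before calling peaks per library. The total and maximum columns are therefore scaled coverage signal, as deposited, and a threshold relative to each library decided which peaks were listed. Read totals are not given in the sources used here, so no counting interval was computed.

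From the lists, peaks in the windows were counted, their lengths clipped to the window were summed, and peaks sharing at least 1 bp were merged into sites. Libraries were compared by two-sided exact permutation tests. The paper calls the libraries biological duplicates, and p-values measure the spread between them. limma 3.58.1 in R 4.3.3 was fitted without a block to log2 maxima and was tested on simulated data. Python 3.11.15 with numpy 2.4.6 did the rest. Tiled windows started at the first base of each chromosome. Alternatives were flanks of 50 and 200 kb, the top 50% of each list, equal list lengths, merging within 500 bp, peaks covering 50% of a site, the open regions' other coordinates, other scalings, and each library left out.

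The 2 loci and the gene lists were chosen with earlier results of these data known. Retinoid, epicardial and fibroblast genes were named where an open region among the 1999 table rows used here placed them, with those in either order and the largest differences named, and *cyp26b1* chosen after its values were seen. Promoter motifs were not analysed.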

Additional observations from a re-analysis of the deposited data

How the results depend on the processing

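The sign of the difference between group means held for covered length, number of peaks and summed signal at both loci under all alternatives run, but its size and the separation of the groups did not. In bp of covered length, the difference at *aldh1a2* was 18698 to 25516 and that at *wt1b* 3179 to 8710 when 1 library was left out. At *aldh1a2*, 22106 became 12563 with 50 kb flanks, 7869 in the top 50%, 9252 with the table's other coordinates and 8103 under 1 threshold on the deposited scale. The other coordinates put the *aldh1a2* open regions at chr7:30055235-30055635 and chr7:30071996-30072396. The window around them shares no base with the one reported. Values at *aldh1a2* under these coordinates thus describe another stretch and do not test the reported one. At *wt1b*, 5944 became 2307 with 50 kb and 9140 with 200 kb, 3118 with equal list lengths, and 2552 and 9454 under 1 threshold on the deposited scale and in steps. The groups then overlapped in *aldh1a2* peaks in the top 50% (2 and 5 against 7 and 5) and under 1 threshold on the deposited scale. At *wt1b* they overlapped in summed signal with equal list lengths (89965 and 44800 against 78953 and 84044) and with 200 kb. All measures of *wt1b* overlapped under 1 threshold on the deposited scale. The number of *wt1b* peaks also overlapped with equal list lengths (5 and 3 against 6 and 4) and in the top 50% (2 and 1 against 4 and 2). With the replicate number as a block, the differences were 22106 and 5944 bp of covered length and 119898 and 26592 of summed signal, the same as without it, and the smallest exact p of such pairs is 0.5. The labels give same-numbered libraries nothing in common but the number. Over sites, the deviations of such libraries from their group means had a correlation of 0.04. This value cannot see a shift common to all sites of a library. With the replicate block limma called 3342 sites higher and 926 lower over the genome in place of 1785 and 670. Among those higher were *wt1b* site 3 (limma, adjusted p = 7.67e-04), *wt1b* site 2 (limma, adjusted p = 0.0267) and *aldh1a2* site 14 (limma, adjusted p = 0.035).

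Sites in all 4 lists at *aldh1a2*, 5 in the report, numbered 3 with 50 kb flanks, 8 with 200 kb, 3 where peaks had to cover 50% of a site, 1 in the top 50% of each list, 2 with the table's other coordinates and 0 under 1 threshold in steps. At *wt1b*, 3 became 5 with 200 kb and 1 under the 50% cover, the top 50% and either common threshold. *Epi/FB:dnAP-1*-only sites at *aldh1a2*, 7 in the report, numbered 4 with 50 kb, 2 in the top 50%, 3 with the other coordinates and 2 under 1 threshold on the deposited scale. At *wt1b*, 1 became 2 under the 50% cover, 0 under 1 threshold on the deposited scale and 3 under 1 in steps. Leaving out 1 library gave 5 to 6 and 3 to 4 sites in all remaining lists, 7 to 9 and 1 to 4 in *Epi/FB:dnAP-1* only and 0 to 1 at each locus in control only, at *aldh1a2* and *wt1b*.

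Of tiled windows, the *aldh1a2* difference exceeded 98.7% under 1 threshold on the deposited scale and 98.8% to 99.7% without 1 library, and the *wt1b* difference 80.5% to 90.5%. *aldh1a2* covered length exceeded 86.0% in *Epi/FB:dnAP-1* under 1 threshold on the deposited scale and 51.2% in control under 1 in steps. With the other coordinates 0 lists had a peak at either open region of *aldh1a2*. With the reported coordinates, 2 lists had a peak within 1 kb of the second open region, in place of 1 list with a peak over it.

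limma called 303 sites higher and 1709 lower with lists centred, 47 and 389 on total signal, 15475 and 33 in steps, and 2478 and 442 of the upper 50% of sites by total signal. Without 1 library it called 0 to 154 higher and 0 to 225 lower, and 2907 to 6862 had an unadjusted p under 0.05. *aldh1a2* site 15 was reversed by centring (-0.26), by total signal (-0.46) and without *Epi/FB:dnAP-1* replicate 1 (-0.017, in a range of -0.017 to 0.21 without 1 library), site 1 and *wt1b* site 5 by centring (-0.063 and -0.076). The cause was not tested. The lists give no depth, so weak peaks carry no detection limit.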
